A study of Mus musculus with 2 samples.

Results

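The genes described here are 10 genes that mark hepatic stellate cells, the myofibroblasts that arise from them, and the mural cells of liver vessels. They were chosen by symbol: *Acta2*, *Tagln*, *Myl9*, *Tpm1*, *Tpm2* and *Cnn1* of the smooth muscle type contractile apparatus, *Des* of the intermediate filaments, the receptors *Pdgfra* and *Pdgfrb*, and *Rgs5*, a regulator of G protein signalling. They are 10 of 45777 gene symbols measured, and the estimated counts of all their transcripts were summed per symbol. Liver RNA of HFD-fed C57BL/6 mice, of the C57BL/6 N substrain by the study's text, was sequenced after selection of poly-A RNA, with 1 library from the AAV-GFP group and 1 from the AAV-*Wee1-AS* group. Both groups were 7 weeks old when the diet began, were fed the HFD for 18 weeks and received their virus into the retro-orbital sinus at week 13, 5 weeks before the livers were taken. AAV-GFP carried green fluorescent protein as the control. AAV-*Wee1-AS* carried the long noncoding RNA *Wee1-AS* under the CMV promoter in an AAV9 capsid, so that its expression was not restricted to hepatocytes by the promoter. The series was made to ask how the liver transcriptome differs when *Wee1-AS* is overexpressed. The sex of these mice is not given in the sources used here, and the series' design text speaks of 4 liver samples, of which the 2 libraries with values were analysed. With 1 library per group there is no estimate of the spread between mice, and no p-value is given. Each ratio therefore compares the libraries and not the treatments.

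The libraries held 55466182 counts (AAV-GFP) and 48079335 counts (AAV-*Wee1-AS*). Across genes, the ratio between them went down with the GC content of the transcript, and of 10 bins of about 1510 genes, the bin with the lowest GC content had a median log2 ratio of 1.44 and the bin with the highest -0.67. The hepatocyte marker *Alb*, albumin, was at 37459 and 53289 TPM. TPM is the level per transcript length, scaled to an equal total per library.

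A quiescent stellate cell stores retinyl esters beside the sinusoid. In injured liver it can turn into a myofibroblast, which assembles actin filaments with tropomyosin, transgelin and calponin, contracts through phosphorylation of myosin light chains, and deposits collagen. Platelet-derived growth factor acts on these cells through its receptors, which drive their migration and division. The transcription factor SRF, with its cofactors of the myocardin family, binds the CArG box, a short DNA element in the control regions of many of these contractile genes, and TEAD factors bind the sequence CATTCC.

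Promoter windows of 8 of the 10 genes, the 250 bases before the RefSeq start in the build GRCm38.p6, were searched for these elements on both strands. *Tagln* and *Pdgfrb* had no window. A CArG box, counted here as CC, 6 bases that are A or T, and GG, lay in 1 of the 8 windows, that of *Myl9*, from -161 to -152 relative to the start. It lay in 1.47% of the 32851 windows of all genes. The form with 1 G or C among the inner 6 bases lay in *Myl9*, from -99 to -90, and in *Acta2*, from -84 to -75 and from -34 to -25, against 7.24% of all windows. CATTCC, here as its complement GGAATG, lay in *Acta2* at -146 to -141 and in *Tpm1* at -56 to -51, against 12.6% of all windows. The other 5 windows held no match. They were those of *Des* and *Tpm2*, lower with AAV-*Wee1-AS*, of *Pdgfra* and *Rgs5*, higher when summed over transcripts, and of *Cnn1*, without counts. The window of *Myl9* lies before the start of NM_172118, which had 230 and 64 counts. Its predicted transcript XM_006500453, with 15 and 49 counts, starts inside that window. The window of *Pdgfra* lies before the start of NM_011058, which had 125 and 0 counts. The transcript that was higher, XM_006504261 with 43 and 239 counts, starts further downstream, and the bases before that start were not searched as a window. The window of *Tpm1* lies before the start of the NM transcripts of its long forms, which had 416 and 28 counts. All its long forms together had 453 and 98 counts. Of these, XM_006511044, with 12 and 47 counts, starts inside that window, and XR_003947849, with 0 and 13, starts upstream of it. The bases before these starts, and before the internal start of the short forms, were not searched as windows. The 3 windows with a match are printed to show where the matches lie, with that of *Rgs5* as 1 of those without. Capitals mark the matches. A match is a description of these letters and not evidence that a factor binds there. The *Acta2* window is chr19:34255374-34255623 on the minus strand, that of *Myl9* is chr2:156775214-156775463 on the plus strand, that of *Tpm1* is chr9:67049214-67049463 on the minus strand, and that of *Rgs5* is chr1:169655251-169655500 on the plus strand.
Acta2: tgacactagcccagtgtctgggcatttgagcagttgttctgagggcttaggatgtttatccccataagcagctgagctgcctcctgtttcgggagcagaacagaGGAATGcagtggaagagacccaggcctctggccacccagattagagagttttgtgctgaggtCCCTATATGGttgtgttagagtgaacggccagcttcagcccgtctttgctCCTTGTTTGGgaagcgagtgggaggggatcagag
Myl9: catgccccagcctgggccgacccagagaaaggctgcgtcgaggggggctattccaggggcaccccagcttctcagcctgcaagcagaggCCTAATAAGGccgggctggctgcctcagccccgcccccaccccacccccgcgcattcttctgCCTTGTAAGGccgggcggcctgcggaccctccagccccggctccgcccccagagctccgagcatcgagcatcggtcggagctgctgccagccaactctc
Tpm1: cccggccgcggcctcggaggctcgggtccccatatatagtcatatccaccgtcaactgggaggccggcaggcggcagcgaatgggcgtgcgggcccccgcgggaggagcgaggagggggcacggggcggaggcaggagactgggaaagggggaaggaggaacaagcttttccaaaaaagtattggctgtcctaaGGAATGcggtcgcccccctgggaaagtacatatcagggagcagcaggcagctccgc
Rgs5: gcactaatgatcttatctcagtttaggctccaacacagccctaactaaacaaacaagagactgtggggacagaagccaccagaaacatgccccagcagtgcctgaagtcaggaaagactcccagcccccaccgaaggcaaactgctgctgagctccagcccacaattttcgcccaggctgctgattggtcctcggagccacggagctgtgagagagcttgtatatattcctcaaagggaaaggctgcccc

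In the AAV-*Wee1-AS* library, 7 of the 10 genes were lower, 2 were higher and 1, *Cnn1*, had no counts in either library. A gene was kept for ratios where it had at least 10 counts in at least 1 library, which 9 of the 10 genes and 15857 genes in all passed. *Acta2*, *Tagln* and *Pdgfrb* were below 0.5-fold, so that 3 of the 9 genes were, against 8.43% of all genes kept. *Rgs5* alone was above 2-fold, 1 of the 9 genes, against 22.5% of all genes kept. The exact 95% counting interval of the log2 ratio lay wholly below 0 for 7 of the 9 genes, against 37.4% of all genes, and wholly above 0 for the other 2, against 39.6%. The median log2 ratio of the 9 genes was -0.83, against -0.0020 for all genes. The 5 contractile genes with counts were all lower, with log2 ratios from -2.58 to -0.68. These intervals are for counting error only and treat each estimated count as an independent draw. Copies made by PCR are not independent molecules, so the intervals can be too narrow even for that error. In whole liver, fewer cells of a type and less RNA per cell cannot be told apart.

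**Figure D1:**
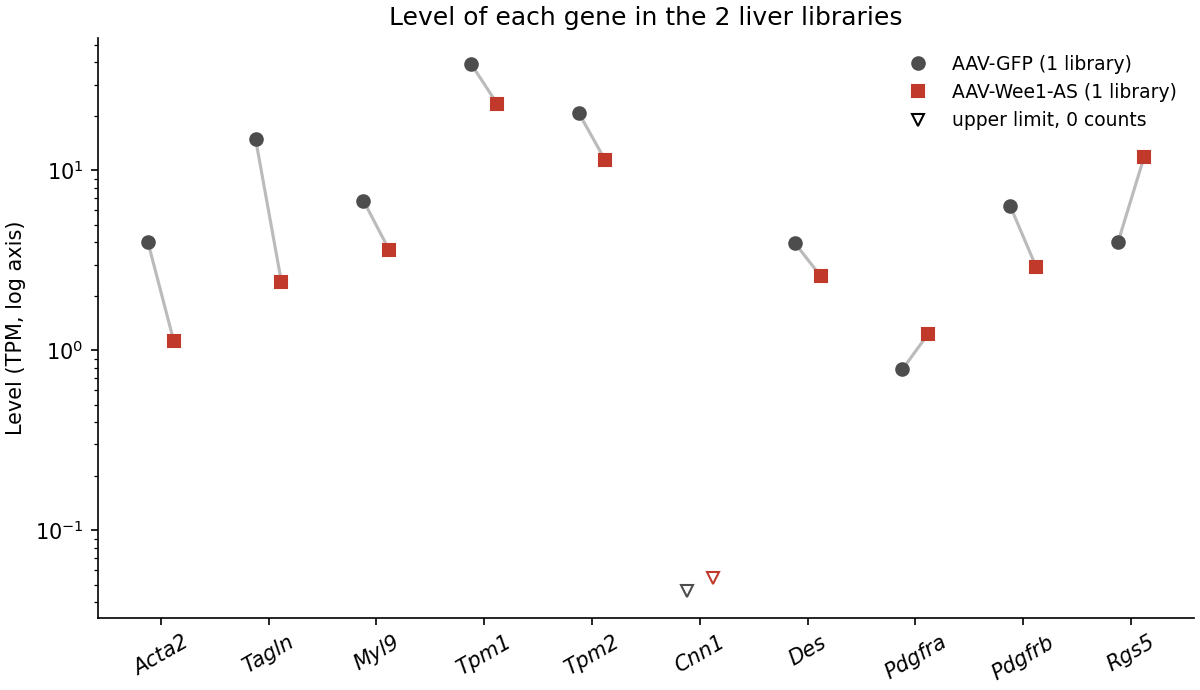
Level of each gene in TPM, on a log axis, in the AAV-GFP library (circles) and the AAV-*Wee1-AS* library (squares), with open triangles for the upper limit that 0 counts of *Cnn1* allow. The line goes down for 7 genes and up for *Pdgfra*, from 0.785 to 1.24 TPM, and *Rgs5*, from 4.00 to 11.8 TPM.

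*Tagln* encodes transgelin, also named SM22 alpha, a protein that bundles actin filaments in smooth muscle and myofibroblasts. It lies at 9:45929628-45936058 of the mouse build mm10 and had 1 listed transcript. It had 780 counts with AAV-GFP and 106 with AAV-*Wee1-AS*, levels of 14.9 and 2.39 TPM. Its log2 ratio of -2.58 (95% counting interval -2.91 to -2.31), 0.167-fold, was the lowest of the set. Its locus overlaps that of *Pcsk7* by 2480 bases, and *Pcsk7* had 2013 and 1457 counts, a log2 ratio of -0.19. The kit marks strand, but whether the strand was used in counting is not given in the sources used here.

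*Acta2* encodes the alpha actin of smooth muscle, the usual marker of an activated stellate cell, at 19:34240336-34255585. It had 331 counts and 4.02 TPM in the AAV-GFP library, and 82 counts and 1.13 TPM in the AAV-*Wee1-AS* library. The log2 ratio was -1.71 (-2.10 to -1.38), 0.305-fold, and with that of *Tagln* it was 1 of the 2 whose whole interval lay below 0.5-fold, against 3.61% of all genes. The RefSeq transcript NM_007392 held 322 of the counts in the first library and all 82 in the second. No other listed gene overlaps *Acta2*.

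*Myl9* encodes the regulatory light chain of smooth muscle myosin, whose phosphorylation starts contraction, at 2:156775408-156781657. Its 245 and 113 counts, 6.80 and 3.60 TPM, gave a log2 ratio of -0.83 (-1.17 to -0.51). The counts were shared out differently between its 2 transcripts: NM_172118 went from 230 to 64 counts, while the predicted transcript XM_006500453 had 15 and 49. The predicted transcript thus took 6.12% of the gene's counts with AAV-GFP and 43.4% with AAV-*Wee1-AS*.

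*Tpm2* encodes beta-tropomyosin, which lies along the actin filament, at 4:43513726-43523583. It had 1421 and 648 counts, 20.7 and 11.5 TPM, and a log2 ratio of -0.85 (-0.99 to -0.72). The transcript with most of its counts, NM_001277876, had 1128 and 466, and NM_001277875 had 248 and 106. The 2 transcripts with few counts were higher in the AAV-*Wee1-AS* library, with 40 and 60 counts for XM_006537780 and 5 and 16 for NM_009416. The locus overlaps that of *Car9* by 4 bases, and *Car9* had 17 and 0 counts.

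*Tpm1* encodes alpha-tropomyosin, at 9:67022590-67049672 on the minus strand, and was the most abundant of the 10 genes per length in both libraries. It had 2175 counts and 39.0 TPM in the AAV-GFP library, and 1121 counts and 23.5 TPM in the AAV-*Wee1-AS* library. The log2 ratio was -0.68 (-0.78 to -0.57), the smallest difference among the 5 contractile genes with counts. The gene makes long tropomyosins from an upstream start, the forms of muscle and of stress fibres, and short tropomyosins from an internal start, which are found in nonmuscle cells. The first exon of the long forms lies at 9:67049019-67049267 and that of the short forms at 9:67043578-67043802 in the GENCODE annotation of GRCm38. Its 38 listed transcripts began in 2 clusters, 25 in the upstream one and 13 in the internal one.

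The long forms of *Tpm1* summed to 453 counts with AAV-GFP and 98 with AAV-*Wee1-AS*, a log2 ratio of -1.91 (-2.26 to -1.61). The short forms summed to 1722 and 1023 counts, a log2 ratio of -0.47 (-0.59 to -0.36). The intervals of the 2 forms do not overlap. Long forms took 20.8% of the gene's counts (exact binomial 95% interval 19.1 to 22.6) with AAV-GFP and 8.74% (7.15 to 10.6) with AAV-*Wee1-AS*. Of the *Tpm1* total, short forms thus held the larger share in both livers.

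Within the long forms, the second exon comes as 1 of an alternative pair of 126 bases each. The upstream exon of the pair, 9:67048124-67048249, is known from smooth muscle, and the only RefSeq NM transcript with it, NM_001164249, had 174 and 28 counts. The downstream exon, 9:67047786-67047911, was in 5 NM transcripts, which together had 242 and 0 counts. Against a floor of 3 counts this is at least 66.5-fold lower, but only if the division of reads between transcripts holds. Of these, NM_001164250 had 145 and 0 counts and NM_024427 had 88 and 0. The predicted transcript XM_006511044, also of the upstream start, went the other way with 12 and 47 counts, and XR_003947849 had 0 and 13. The counts of overlapping transcripts are estimates of how reads divide between them, and the error of that division was not measured, so the sums over each start are given first. With NM transcripts alone, chosen after the values were seen, long forms took 19.8% and 2.72% of the counts.

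**Figure D2:**
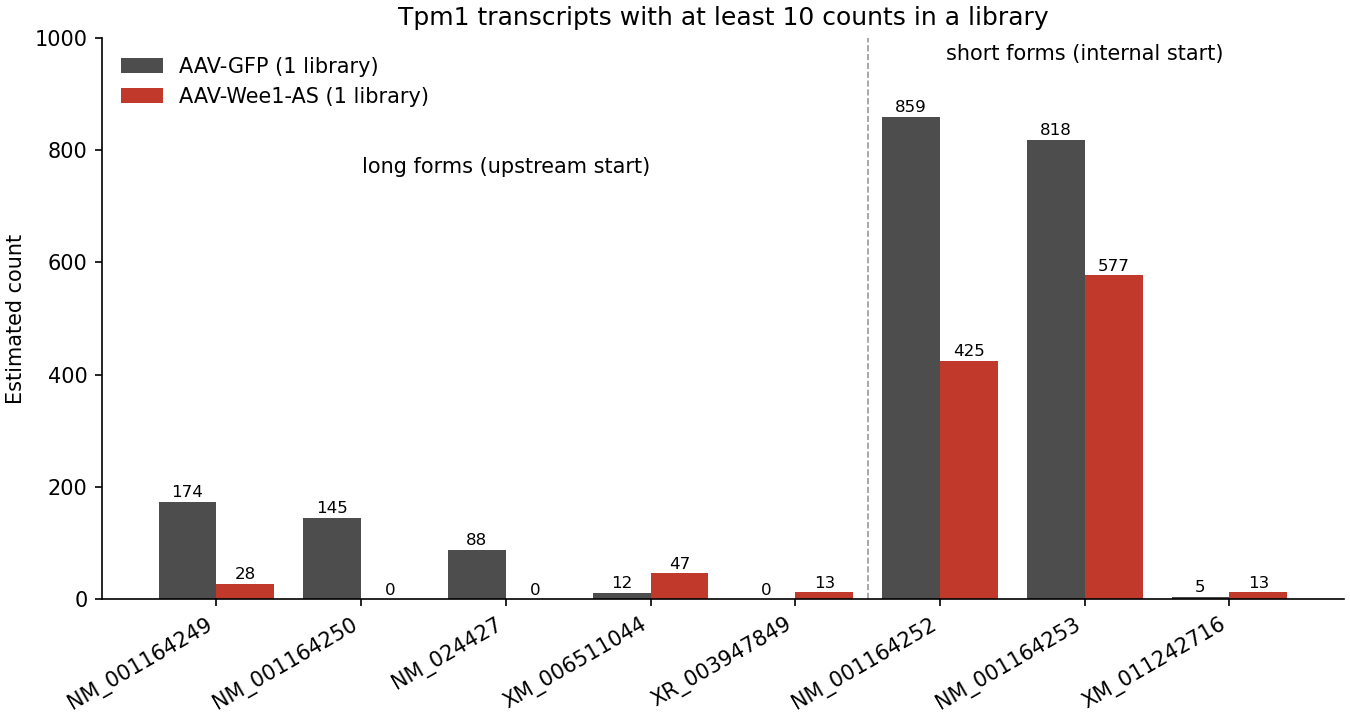
Estimated counts (linear axis) of the 8 *Tpm1* transcripts with at least 10 counts in a library, by start site, in the AAV-GFP library (grey) and the AAV-*Wee1-AS* library (red). Of the 5 long forms, 3 are lower in the AAV-*Wee1-AS* library and 2 predicted ones are higher, and the 2 abundant short forms go from 859 to 425 and from 818 to 577.

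*Cnn1* encodes calponin 1, which binds actin in differentiated smooth muscle, at 9:22099221-22109221. All 3 of its transcripts were listed at 0 counts in both libraries. A count of 0 allows up to 3 counts, or about 0.0458 TPM with AAV-GFP and 0.0541 TPM with AAV-*Wee1-AS* for its longest transcript. No ratio is given. Other genes of differentiated smooth muscle did have counts, such as *Myh11*, the smooth muscle myosin heavy chain, with 98 and 122 (log2 ratio 0.58, interval 0.20 to 0.99). *Myh11* was chosen after its values were seen. Of 14 smooth muscle and pericyte markers with enough counts, 7 were higher and 7 lower, such as *Smtn*, smoothelin, with 683 and 290 (-0.95).

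*Des* encodes desmin, the intermediate filament protein of muscle that also marks rodent stellate cells, at 1:75360292-75368579. It had 401 counts and 3.96 TPM in the AAV-GFP library, and 222 counts and 2.59 TPM in the AAV-*Wee1-AS* library. The log2 ratio was -0.57 (-0.82 to -0.34). Per length, *Acta2* was at 1.01 times the level of *Des* with AAV-GFP and at 0.437 times with AAV-*Wee1-AS*, and *Tagln* was at 3.76 and 0.922 times.

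*Pdgfrb* encodes the beta receptor for platelet-derived growth factor, which stellate cells and pericytes carry, at 18:61045127-61085067. It had 1129 and 441 counts, 6.33 and 2.91 TPM, and a log2 ratio of -1.08 (-1.24 to -0.92). Its interval reached past 0.5-fold, so that counting error alone leaves it on either side of that limit. The transcripts NM_008809 and NM_001146268, which differ by 3 bases in length, had 794 and 262 and 335 and 179 counts, and the 2 others had none.

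*Pdgfra* encodes the alpha receptor, found on fibroblasts of the portal tract and on stellate cells, at 5:75151322-75198206. It had 172 counts and 0.785 TPM in the AAV-GFP library, and 242 counts and 1.24 TPM in the AAV-*Wee1-AS* library. The log2 ratio was 0.76 (0.48 to 1.06), and the 2 receptors thus lay on opposite sides of 0 with intervals that do not overlap. The counts of *Pdgfra* moved between transcripts. NM_011058 had 125 counts with AAV-GFP and 0 with AAV-*Wee1-AS*, while the predicted transcript XM_006504261 had 43 and 239. With NM transcripts alone the direction of *Pdgfra* turned, to a log2 ratio of -4.46, which rests on 3 counts in the AAV-*Wee1-AS* library, at the floor. With the most abundant transcript alone the log2 ratio was 2.71. The direction of *Pdgfra* thus depends on which of its 8 listed transcripts are counted.

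*Rgs5* encodes a regulator of G protein signalling that is abundant in pericytes and vascular smooth muscle, at 1:169655501-169695813. It had 540 counts and 4.00 TPM in the AAV-GFP library, and 1351 counts and 11.8 TPM in the AAV-*Wee1-AS* library. The log2 ratio was 1.60 (1.46 to 1.75), 3.02-fold. All of its counts were on the transcript NM_009063. By TPM it was the seventh of the 10 genes with AAV-GFP and the second with AAV-*Wee1-AS*. Its level was 0.632 times that of *Pdgfrb*, the other pericyte gene of the set, in the first library and 4.06 times in the second. Removal of the trends over all genes with GC content and length, given below, left log2 ratios of 0.24 (*Rgs5*) and -0.91 (*Pdgfrb*).

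The order of the levels per length also differed below the first place. In the AAV-GFP library *Tpm1*, *Tpm2* and *Tagln* led with 39.0, 20.7 and 14.9 TPM, *Myl9* and *Pdgfrb* followed at 6.80 and 6.33, and *Acta2*, *Rgs5* and *Des* lay together at 4.02, 4.00 and 3.96. In the AAV-*Wee1-AS* library *Tpm1* was followed by *Rgs5*, *Tpm2* and *Myl9*, while *Tagln* went from rank 3 to rank 7 and *Acta2* from rank 6 to rank 9. How far neighbours in this order vary between mice was not measured.

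**Figure D3:**
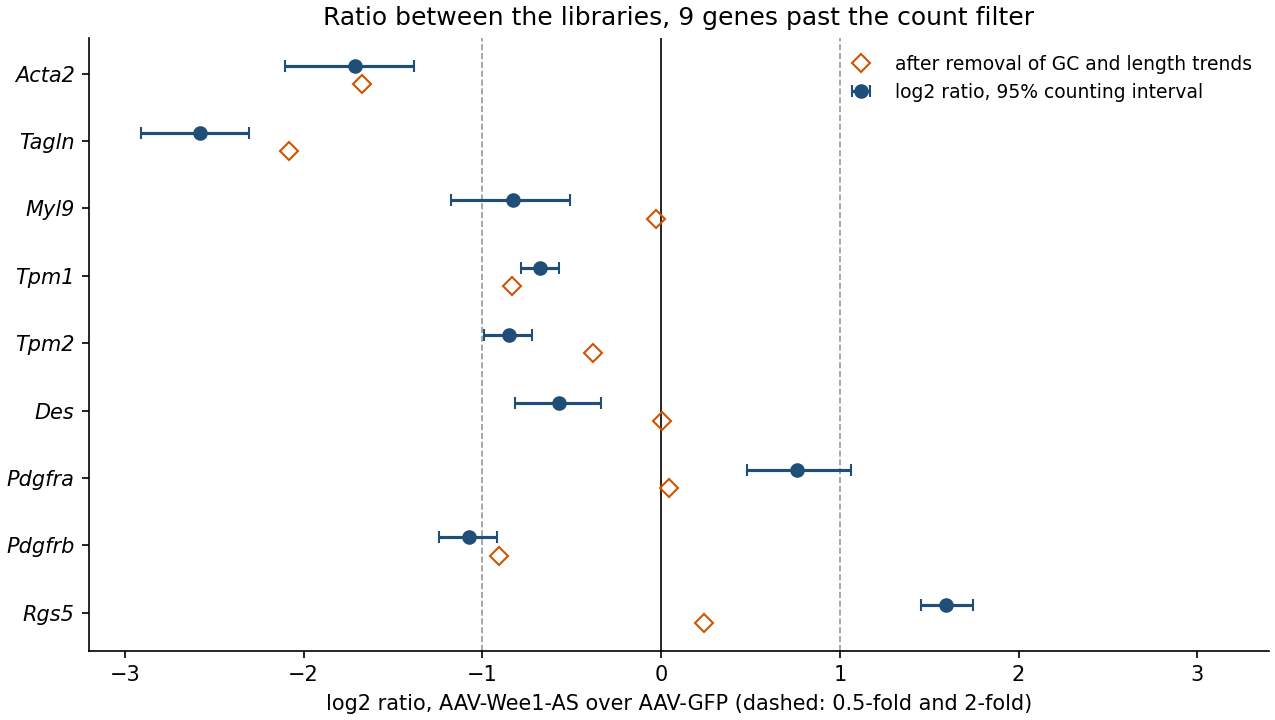
log2 ratio of AAV-*Wee1-AS* over AAV-GFP for the 9 genes with counts (circles, with exact 95% counting intervals), and the same ratio after the trends over all genes with GC content and with length were removed (open diamonds). The diamonds of *Acta2* and *Tagln* stay below -1, while those of *Myl9*, *Des* and *Pdgfra* lie within 0.05 of 0 and that of *Rgs5* is at 0.24.

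Because the ratio followed GC content across all genes, each gene was also set against that trend. The longest transcripts of the 9 genes had from 41.1% (*Rgs5*) to 56.6% (*Myl9*) GC. For *Rgs5*, the trend with GC content and length alone gave a log2 ratio of 1.36, which left 0.24. In the bin with the lowest GC content, where *Rgs5* lies, 65.5% of genes were above 2-fold. For *Pdgfra* the trend gave 0.72 and left 0.05, for *Des* it gave -0.58 and left 0.0067, and for *Myl9* it gave -0.80 and left -0.03. *Tpm2* kept -0.38 and *Pdgfrb* -0.91.

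*Acta2* and *Tagln* lay far from the trend. Genes with the GC content and length of *Acta2* had a trend value of -0.04, which left the ratio at -1.67, and *Tagln*, with a trend value of -0.50, was left at -2.08. *Tpm1* also lay below it, with a trend value of 0.16 and -0.84 left. The length used was that of the longest listed transcript. For *Tpm1* this was 3950 bases, of a transcript with 0 and 1 counts, while the 2 with most counts had 1675 bases. For *Tpm2* it was 3250 bases, of a transcript with 5 and 16 counts, while the one with most counts had 2108. How far this moved the values left for *Tpm1* and *Tpm2* was not tested. After the trends were removed, 2 of the 9 genes were below 0.5-fold, against 7.91% of all genes, and none of the 9 (0) was above 2-fold, against 6.81%. The median of the 9 genes was then -0.38. Whether the trend came from the RNA, the libraries or the livers was not tested.

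**Figure D4:**
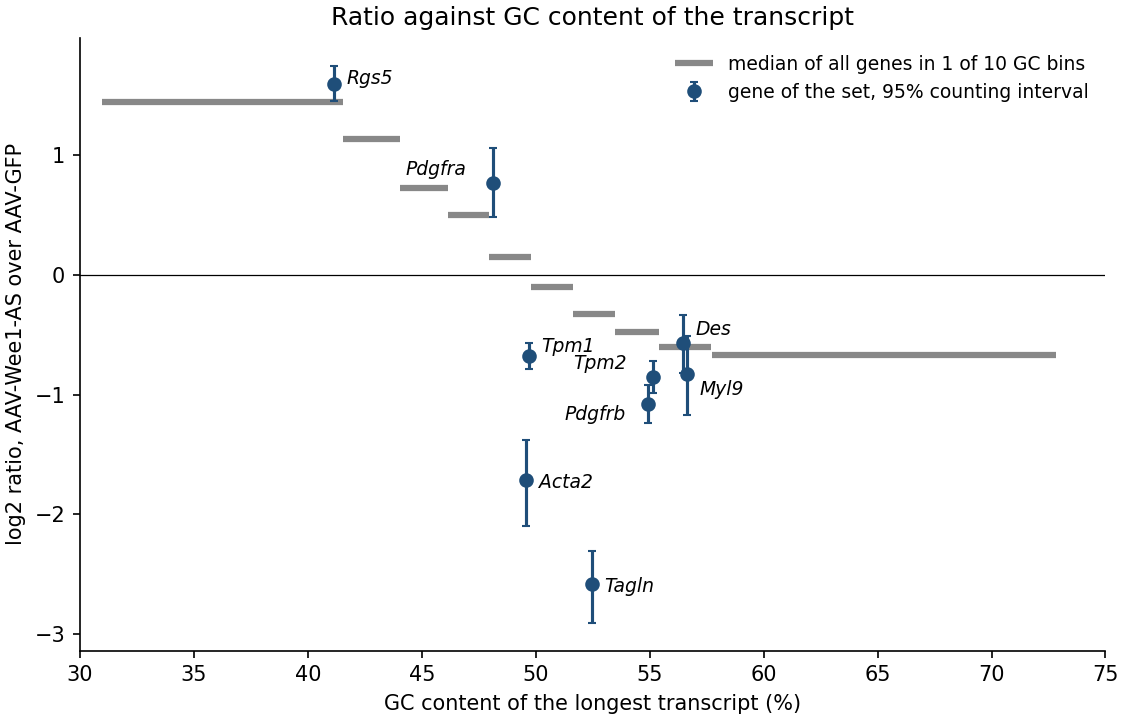
log2 ratio of AAV-*Wee1-AS* over AAV-GFP against the GC content (%) of the longest transcript, for the 9 genes (points with 95% counting intervals) and as the median of each of 10 bins of all genes (grey bars). *Rgs5*, *Des* and *Myl9* lie near the bar for their GC content, *Pdgfra* lies above it, and *Acta2* and *Tagln* lie well below it.

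The paralogs of the contractile genes were lower for all 3 actin paralogs with enough counts and for 3 of 5 paralogs of tropomyosin, calponin and transgelin. The cytoplasmic actins had 39107 and 19225 counts (*Actb*, log2 ratio -0.75) and 15282 and 5826 (*Actg1*, -1.11). *Actc1*, the cardiac actin, had 22 and 0 counts, at least 6.05-fold lower, and *Actg2* had 7 and 0. *Acta1*, the skeletal actin, was at 0 in both. The reads of actin paralogs can be divided between these genes only where the sequences differ, so the small counts of *Actc1* and *Actg2* are uncertain. *Acta2* stood at 0.00650 times the level of *Actb* with AAV-GFP and at 0.00316 times with AAV-*Wee1-AS*, per length.

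Among the other paralogs, *Tagln2* (2954 and 872 counts, log2 ratio -1.48) and *Cnn2* (928 and 316, -1.27), nonmuscle forms of transgelin and calponin, were below 0.5-fold. They were 2 of 5, against 8.43% of all genes. With the trends taken out none (0) of the 5 was, against 7.91%. *Cnn3* (4950 and 5304, 0.38) and *Tpm4* (806 and 842, 0.34) were slightly higher, and *Tpm3* (6286 and 4111, -0.33) was lower. *Tagln3* had 0 and 3 counts. The nonmuscle light chains *Myl12a* (4916 and 2700 counts, -0.59), *Myl12b* (5643 and 2838, -0.71) and *Myl6* (13167 and 6381, -0.77) had ratios close to that of *Myl9*. After removal of the trends *Tagln2* kept -0.75, *Cnn2* -0.70, *Tpm3* -0.69 and *Actg1* -0.64, *Cnn3* kept 0.32, *Tpm4* turned to -0.09, and the 3 light chains kept from -0.36 to -0.11.

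The structural genes that anchor and cross-link actin filaments were lower in 12 of 14 cases and none (0) was below 0.5-fold, against 8.43% of all genes, with a median log2 ratio of -0.53 against -0.0020 for all genes. Of the 14, 10 had an interval wholly under 0, against 37.4% of all genes, and with the trends taken out the median was -0.21. Besides the light chains, *Flna* (filamin A, 3679 and 1886 counts, -0.69) and *Actn4* (alpha-actinin 4, 12750 and 6796, -0.63) were the furthest from 0, and the trends left them at -0.87 and -0.25. The list of other intermediate filament genes of mesenchyme also holds *Syne1* and *Plec*, which do not encode such filaments. Its genes differed in direction, 3 of 5 lower. *Vim*, vimentin, had 2530 and 1026 counts (-1.02) and *Nes*, nestin, 276 and 145 (-0.64), while *Syne1*, which ties the nucleus to the cytoskeleton, had 646 and 940 (0.82) and *Plec*, plectin, 6179 and 4315 (-0.24). *Vim* kept -1.33 after removal of the trends and *Syne1* kept 0.23.

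Of the SRF, MRTF and YAP genes, 11 of 16 with enough counts were lower, 5 of them below 0.5-fold against 8.43% of all genes, with a median of -0.66. With the trends taken out, 3 were below 0.5-fold, against 7.91% of all genes, and the median was -0.41. *Srf* itself had 847 and 385 counts (-0.86). *Ccn1* (740 and 213, -1.51) and *Ccn2* (597 and 216, -1.18), matricellular genes that respond to YAP and SRF, were lower and kept -1.04 and -1.18 after removal of the trends. *Elk4* (351 and 686, 1.24) and *Wwtr1* (617 and 1077, 1.08), which encode an SRF partner and the YAP relative TAZ, were higher. Of these ratios, *Elk4* kept 0.79 once the trends were removed and *Wwtr1* was left at -0.0048. *Myocd*, the myocardin gene of smooth muscle, was at 0 in both libraries.

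The PDGF list was divided, with 5 of 11 genes higher and 6 lower. The ligand genes *Pdgfa* (328 and 164 counts, log2 ratio -0.72) and *Pdgfb* (165 and 70, -0.94) were lower and *Pdgfc* (115 and 163, 0.77) and *Pdgfd* (17 and 67, 2.12) were higher. The trends left -0.76, -0.86, 0.79 and 0.84 in the same order. *Pdgfd* rests on few counts, and *Pdgfa*, *Pdgfc* and *Pdgfd* were named after their values were seen. Of the other genes of the list, *Pik3r1*, a regulatory subunit of PI3 kinase, had 1168 and 3231 counts (1.74), the coreceptor gene *Nrp1* 1733 and 3663 (1.36), and *Plat*, tissue plasminogen activator, 107 and 34 (-1.33). Beyond the trends *Pik3r1* kept 0.51 and *Plat* -1.83, while *Nrp1* turned to -0.15. Of the other RGS genes, 7 of 9 were lower, the reverse of *Rgs5*, with a median of -0.45 that became -0.25 after removal of the trends. *Rgs16* had 19562 and 7082 counts (-1.19) and *Rgs19* 175 and 84 (-0.77), while *Rgs2* had 150 and 217 (0.80) and *Rgs10* 156 and 94 (-0.45). *Rgs16* kept -0.69, *Rgs19* -0.28 and *Rgs10* -0.15, and *Rgs2* turned to -0.07.

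**Figure D5:**
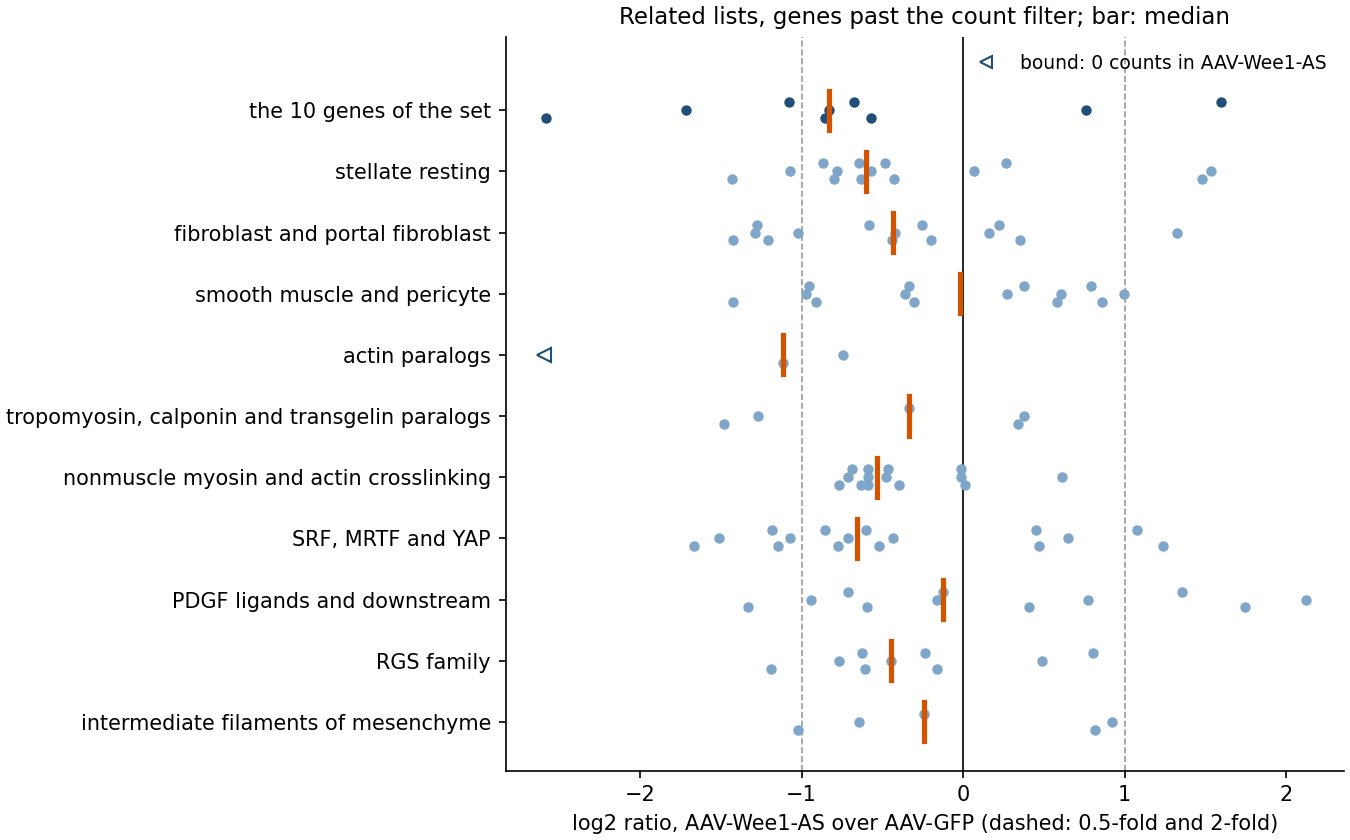
log2 ratio of AAV-*Wee1-AS* over AAV-GFP for the genes of the set and of 10 related lists that passed the count filter (points), with each list's median (bars). An open triangle marks *Actc1*, which had 0 counts in the AAV-*Wee1-AS* library. The set has a median of -0.83, and the lists' medians lie between -1.11 (actin paralogs) and -0.02 (smooth muscle and pericytes).

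The set was compared with other genes of the same cells. Of the markers of resting stellate cells, all 14 passed the count filter, 10 were lower and 4 higher, with a median of -0.60, and the summed level went from 333 to 221 TPM. *Lrat*, the enzyme that stores retinol, had 267 and 617 counts (1.48) and *Hgf*, hepatocyte growth factor, 118 and 285 (1.53). *Ngfr* had 542 and 165 (-1.43) and *Pth1r* 881 and 345 (-1.07). *Reln*, another stellate marker, had 3951 and 3913 counts (0.26). It was chosen after its values were seen and was 1 of the 4 that were higher, while 10 of the 14 were lower. Per length *Acta2* went from 0.392 to 0.0945 times the level of *Reln* and *Tagln* from 1.45 to 0.199 times. After removal of the trends the median of the 14 markers was -0.01, *Lrat* was left at 0.04, *Hgf* at 0.32, *Ngfr* at -0.82 and *Pth1r* at -0.27, and *Reln* turned to -0.31. None of the 14 (0) was then below 0.5-fold or above 2-fold, against 7.91% and 6.81% of all genes.

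Of the markers of fibroblasts, 10 of 14 with enough counts were lower, 5 of them below 0.5-fold against 8.43% of all genes, with a median of -0.43, and *Gli1* was at 0. *Fbln2* had 430 and 131 counts (-1.42), *Cd34* 179 and 60 (-1.27), *Eln*, elastin, 216 and 76 (-1.21), and *Postn*, periostin, 194 and 403 (1.32). After removal of the trends the median was -0.62 and 4 of the 14 were below 0.5-fold, against 7.91% of all genes and 2 of the 9 genes of the set. *Cd34* kept -2.22 and *Fbln2* -1.06, and *Postn* was left at -0.02. Of the markers of smooth muscle and pericytes, 7 of 14 were lower and 7 higher, with a median of -0.02. Of the 14, 1 was below 0.5-fold, against 8.43% of all genes. With the trends taken out, 10 were lower and the median was -0.28, and 2 were below 0.5-fold, against 7.91% of all genes. The summed level of these markers went from 78.3 to 114 TPM, and *Cald1* alone from 39.1 to 75.6 TPM. Without it the other 15 genes of the list summed to 39.3 and 38.7 TPM. *Cald1*, caldesmon, had 5350 and 8790 counts (0.99, and 0.04 after removal of the trends), *Mcam* 649 and 272 (-0.97), *Smtn*, smoothelin, 683 and 290 (-0.95), and *Notch3* 150 and 65 (-0.91), and the trends left these last 3 at -0.54, -0.30 and -0.79. With the trends taken out, *Acta2*, *Tagln*, *Tpm1* at -0.84 and *Pdgfrb* at -0.91 lay below the medians of all 3 lists. *Tpm2* at -0.38 lay above the fibroblast median and below the other 2. *Myl9* at -0.03 lay below that of the resting stellate markers only. *Des*, *Pdgfra* and *Rgs5* lay above all 3. The place of *Tpm1* rests on the length used for it, given above.

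Markers of the other main cells of the liver gave medians nearer 0 than that of the set. The summed level of 8 Kupffer cell and macrophage markers went from 428 to 332 TPM, with 4 higher and 4 lower and a median log2 ratio of -0.01. *Cd5l*, named after its values were seen, went from 208 to 121 TPM, and the other 7 summed to 220.3 and 211 TPM. The scavenger receptor gene *Marco* (162 and 414 counts, 1.62), *Vsig4* (649 and 1550, 1.53) and *Timd4* (175 and 388, 1.42) were above 2-fold, 3 of 8 markers against 22.5% of all genes, and *Cd68* had 1701 and 770 (-0.86). After removal of the trends *Marco* kept 2.23, *Vsig4* 0.98 and *Timd4* 0.77, *Cd68* was left at -0.31, and 1 of the 8 was above 2-fold against 6.81% of all genes. That of 8 endothelial markers went from 152 to 126 TPM, with 5 lower and a median of -0.17. Among them were the receptor genes *Tek* (439 and 654 counts, 0.85) and *Kdr* (2159 and 2628, 0.56), *Vwf* (1093 and 620, -0.54) and *Clec4g* (3222 and 1903, -0.48), which the trends left at 0.19, 0.14, -0.58 and -0.15. That of 9 hepatocyte markers was 105291 and 106236 TPM, with 4 higher and 5 lower and a median of -0.05. The sum without *Alb* was 67832 and 52947 TPM. With the trends taken out, 8 of the 9 were higher and the median was 0.22. *Cps1*, of the urea cycle, had 63481 and 122243 counts (1.22), *Fgb*, a fibrinogen chain, 96955 and 139459 (0.80), *Ttr*, transthyretin, 536296 and 289753 (-0.61), and *Alb* 2542754 and 3065513 (0.55), and the trends left these at 0.43, 0.17, -0.89 and 0.34. Skeletal and cardiac muscle, a tissue that shares contractile genes with the set, had summed levels of 1.37 and 0.438 TPM over 11 markers. Of these, 7 were at 0 in both libraries, as were 25495 of all 45777 symbols. The part of these cells in the ratios of the set was not tested.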

How the data were processed

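Poly-A RNA libraries were processed by the authors; the submitters' processing notes name Trimmomatic 0.38, HISAT2 2.1.0, SAMtools 1.9 and StringTie 2.1.3b and the build mm10. The authors deposited, for 129299 transcripts and each library, an estimated count, an FPKM value and a TPM value, with the transcript length in bases. The estimated counts are whole numbers shared out between overlapping transcripts and are not normalized. No column of another sample was present (0).

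Counts were summed per gene symbol and scaled by TMM (edgeR 4.0.16, R 4.3.3; AAV-GFP factor 1.03, AAV-*Wee1-AS* factor 0.976). Ratios on the log2 scale used a prior count of 2, and their 95% interval was exact (Clopper-Pearson) from the counts. The count filter asked for 10 counts or more in either of the 2 libraries. Counts of 3 or fewer were taken as the floor. GC content came from the longest GENCODE M21 transcript and was found for 15101 genes (95.2%), all 9 genes of the set with counts included. Length was that of the longest listed transcript of the symbol, with or without counts. Trends were removed by lowess (span 0.3, 5 cycles; statsmodels 0.14.6, Python 3.11.15). TPM and FPKM were summed per symbol. The ratios, their intervals and the removal of trends were run on simulated independent counts with a GC trend. These counts held no spread between mice, no length trend and no division of reads between transcripts. Those, the transcript shares and the promoter search were thus not tested by simulation. Promoter sequences are from RefSeq.

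The alternatives tried were scaling by the upper quartile, by library totals and by DESeq2 1.42.0 size factors, other count filters, a prior count of 0.5, FPKM and TPM with a pseudocount of 1, the most abundant transcript, removal of the trends, protein-coding genes and NM transcripts only. The genes of the set and the other lists were chosen with earlier results of these data known. All 10 genes of the set are named, with every paralog of the contractile genes, regulatory myosin light chains included, and, from each other list, up to 4 genes that reached 100 counts in either library and had the ratios furthest from 0. Further genes (*Reln*, *Myh11*, *Srf*, *Myocd*, *Gli1*, *Pdgfa*, *Pdgfc*, *Pdgfd*, *Pcsk7*, *Car9*, *Cd5l*, *Msln* and *Wt1*) were chosen after their values were seen. *Wee1-AS* was not analysed here, and 2 of the lists are not reported here.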

Additional observations from a re-analysis of the deposited data

How the results depend on the processing

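No paired analysis was possible because each group had 1 library, and for the same reason no library could be left out. The number of genes of the set below 0.5-fold was 3, and it was 1 with FPKM and 2 with TPM, both with a pseudocount of 1, 2 after removal of the GC and length trends, 4 with the most abundant transcript and 5 with NM transcripts only. The number above 2-fold was 1, and it was 2 with the most abundant transcript and 0 after removal of both trends, where the median log2 ratio was -0.38. *Des* turned from -0.57 to 0.0067 after removal of both trends, and *Pdgfra* from 0.76 to -4.46 with NM transcripts only, an alternative added after the data were seen. The latter value rests on 3 counts in the AAV-*Wee1-AS* library, at the floor. With the most abundant transcript *Pdgfra* was at 2.71. The cause of these changes was not tested. In 13 alternatives each, *Tagln* ran from -2.71 to -1.97, *Acta2* from -1.84 to -0.96, *Pdgfrb* from -1.51 to -0.78, *Tpm2* from -0.99 to -0.38, *Tpm1* from -0.87 to -0.20, *Myl9* from -1.52 to -0.03 and *Rgs5* from 0.24 to 1.64, all without a change of direction. The upper quartile moved the median of all genes by most, to -0.13. At 82 counts, the lowest of the 9 genes with counts, the interval of *Acta2* spans -2.10 to -1.38, and differences between mice are not covered by any interval.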

Other observations

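Genes of 3 further cell types were measured beside the set. Of 6 mesothelial markers, 5 were lower in the AAV-*Wee1-AS* library, with a median log2 ratio of -1.03 that became -0.92 after removal of the GC and length trends. *Upk3b*, a uroplakin of the liver's outer lining, had 125 and 32 counts (-1.63), *Msln*, mesothelin, 78 and 25 (-1.30), and *Wt1* 35 and 0, at least 9.62-fold lower against a floor of 3 counts. Mesothelial cells also express contractile genes of the set and their summed marker level was 5.57 and 2.57 TPM. Their part in the ratios of the set was not tested.

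Of 5 cholangiocyte markers with enough counts, 3 were lower and 2 higher, with a median of -0.17, and *Sox9* had 96 and 140 counts (0.81) and *Spp1*, osteopontin, 1900 and 1365 (-0.20). With the trends taken out the list turned, with 1 lower and 4 higher and a median of 0.32, while *Sox9* kept 0.56 and *Spp1* was left at -0.95. Of 8 leukocyte markers 6 were lower, with a median of -0.61. *S100a9*, a neutrophil gene, had 116 and 38 counts (-1.29) and *Ptprc*, the pan-leukocyte gene, 154 and 283 (1.14). With the trends taken out, 7 of the 8 were lower, the median was -0.44, *S100a9* kept -1.57 and *Ptprc* turned to -0.45.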
